A study of Gallus gallus with 403 samples.

Results

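Gene expression in chicken duodenum was set against that in chicken jejunum at days 14 and 21 of age, with 16 of the 403 arrays of the series. The arrays were taken by tissue and age from the sample titles: 4 of duodenum at day 14, 4 of jejunum at day 14, 4 of duodenum at day 21 and 4 of jejunum at day 21. In each of these groups 2 arrays carried the label male and 2 the label female. The labels gave no breed, diet or treatment. They did not say which layers of the gut wall were sampled, and they did not say whether the replicates were separate birds, so the p-values measure the spread between these arrays, which may be technical. Each array read total RNA on the Affymetrix Chicken Genome array, on which short oligonucleotide probes are grouped into probe sets. Values are log2 intensities, and all differences are duodenum minus jejunum on that scale.

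The duodenum is the first loop of the small intestine. It receives the acid contents of the gizzard, bile and the juice of the pancreas that lies within its loop, and it takes up iron, folate and sugars. The jejunum follows it and is the longest stretch of absorptive intestine, where most of the amino acids, sugars and fat are taken up across the brush border, the dense layer of microvilli on the enterocyte.

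The 2 sets of arrays differed in several technical measures as well as in tissue. The lowest value of an array was 3.35 to 3.56 in duodenum at day 14 and 3.33 to 3.54 at day 21, against 3.58 to 3.69 in jejunum at day 14 and 3.63 to 3.75 at day 21. The GAPDH control, read at both ends of its transcript, had a 3′ minus 5′ difference of 0.50 to 0.76 in the duodenum arrays and 1.78 to 2.30 in the jejunum arrays. The poly-A control dap, an RNA added during labelling, read 7.46 to 9.02 in duodenum and 4.53 to 4.58 in jejunum. None of these 3 measures overlapped between the tissues at days 14 and 21, whereas the 3′ minus 5′ differences of actin and of an elongation factor at day 14, and the control thr at both ages, did overlap. The 75th percentile of the array was also separate, at 7.14 to 7.21 in duodenum and 6.92 to 7.00 in jejunum. So was the 99th percentile, at 11.84 to 11.94 and 11.58 to 11.74. On other arrays the 75th percentile overlapped at days 28 and 42 but not at day 1, and the 99th overlapped only at day 1. At days 14 and 21 the tissue and the steps in minimum, upper percentiles, GAPDH and dap cannot be told apart. The minimum and the GAPDH measure stepped in the same way at day 28 (minima 3.38 to 3.48 in duodenum and 3.62 to 3.68 in jejunum). At day 42 the minima overlapped (3.11 to 3.30 in duodenum and 3.16 to 3.36 in jejunum), as they did at day 1 (3.15 to 3.30 and 3.07 to 3.25). Not every measure overlapped there: the GAPDH difference at day 42 was −0.92 to −0.20 in duodenum and −0.01 to 0.93 in jejunum. The control dap went the other way at day 28 (7.26 to 9.20 in duodenum and 9.66 to 10.60 in jejunum) and at day 42 (6.18 to 9.22 and 10.10 to 10.92). For that reason many results below are given beside the same comparison at 1 or more of days 28, 42 and 1, made on other arrays, 4 per tissue and age. The arrays of days 42 and 1 have a limit of their own. Their titles and source names gave duodenum and jejunum, while their free descriptions named other tissues or ages. Their median SD between arrays was 0.426 to 0.535, against 0.153 to 0.181 at days 14 and 21. At day 1 the mean level of 8 enterocyte markers was 9.69 to 10.68 in duodenum and 11.39 to 11.76 in jejunum. At days 14 to 42 it was 11.20 to 12.04 in duodenum and 11.77 to 12.44 in jejunum. The part of such gaps in the day 1 differences was not tested.

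**Figure D1:**
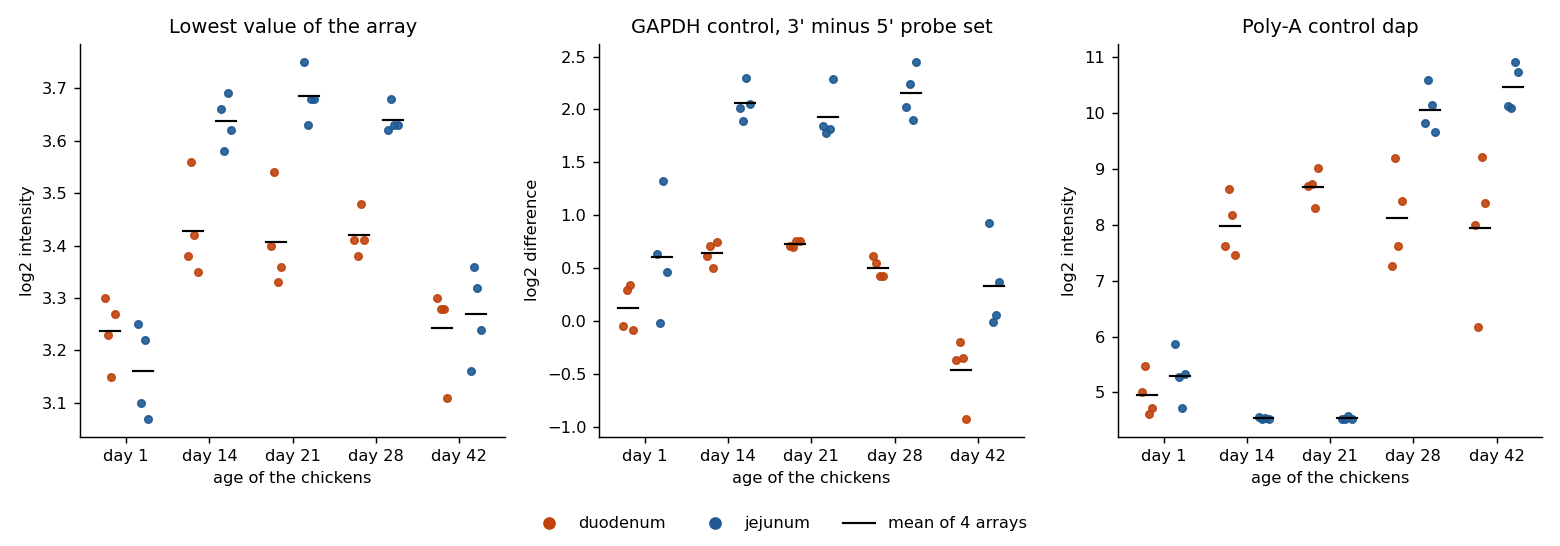
Technical measures of every duodenum and jejunum array by age in days: the lowest value of the array (log2 intensity), the GAPDH 3′ minus 5′ difference (log2) and the poly-A control dap (log2 intensity). Each dot is an array and each bar the mean of 4. At days 14, 21 and 28 the minima of duodenum lie below those of jejunum without overlap, and at days 1 and 42 they overlap.

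Of 12514 genes tested with age as a block, 3056 were called, that is, had an adjusted p under 0.05 and a difference of at least 1 (24.4%). Of these, 2255 were higher in duodenum (18%) and 801 were lower (6.4%). The counts of the gene lists below are to be read beside these shares of all genes. Under quantile normalization, chosen as an alternative scaling, 1523 were higher and 1183 lower, so that the share of higher calls was 56.3% in place of 73.8%. The median difference of all genes was 0.171, and 0.002 under quantile normalization. List counts given below for that scaling are to be read beside its 1523 higher and 1183 lower calls. A stricter rule, which also asked for an adjusted p under 0.05 at each age and for duodenum and jejunum arrays that did not overlap at either age, kept 2868 genes (22.9%), 2116 higher (16.9%) and 752 lower (6.01%). The 15 strongest in each direction under this stricter rule are described with their group below. Within single ages 3214 genes were called at day 14 (25.7%) and 3023 at day 21 (24.2%).

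On the arrays of day 28, 1394 of the 2255 higher genes were called in the same direction (61.8% of the first list and 77.2% of the 1805 higher at day 28, themselves 14.4% of the genes tested). At day 42 the shared number was 825 (36.6%, and 56.4% of the 1463 higher there, 11.7% of genes) and at day 1 it was 720 (31.9%, and 45.2% of 1592, 12.7% of genes). The 801 lower genes were shared in 485 cases at day 28 (60.5%, and 46.2% of 1049, 8.38% of genes), 179 at day 42 (22.3%, and 28.6% of 625, 4.99% of genes) and 160 at day 1 (20%, and 21% of 761, 6.08% of genes). The shared part also varied with the level of the gene. Among those whose brighter tissue averaged under 8, 504 were called lower and 34 of them were lower at day 42 too (6.75%), whereas above 10 the numbers were 122 and 69 (56.6%). At day 28, where the minima stepped as at days 14 and 21, the shares were 54.4% under 8 and 71.3% above 10. For the higher genes the same shares were 169 of 718 (23.5%) under 8 and 244 of 446 (54.7%) above 10 at day 42, and 62% and 75.1% at day 28. These levels were set after the data were seen and no test was made of them. Of 1548 called genes with more than 1 probe set, another probe set was called in the same direction in 24.9% and in the opposite direction in 12.5%; at day 42 these shares were 34.6% and 1.15%.

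Of 20 smooth muscle genes, 11 were higher in duodenum and 0 were lower (2 lower at an unadjusted p under 0.05 in limma), with a median of 1.53 against 0.171 for all genes. On the mean of all probe sets this median was 0.71. MYH11, the myosin heavy chain of smooth muscle, read 11.49, 11.39, 11.76 and 11.15 at day 14 and 11.41, 11.15, 11.67 and 11.22 at day 21 in duodenum, against 7.28, 6.59, 5.47 and 6.75 at day 14 and 7.56, 5.50, 6.68 and 6.10 at day 21 in jejunum. Every duodenum array lay above every jejunum array, by a mean of 4.91 ± 0.26 (SE; adjusted p = 2.59e-11), and the difference was 5.34 at day 28, 3.72 at day 42 and 4.53 at day 1, called at each. MYLK, the kinase that starts smooth muscle contraction, lay at 11.62 to 12.11 in duodenum and 6.47 to 10.36 in jejunum (3.23 ± 0.47). The intermediate filament gene SYNM (2.89 ± 0.13) and the actin-binding CALD1 (2.83 ± 0.28) were also higher without overlap. For MYLK, which had 3 other probe sets, the mean of all was 1.27. The list held at other ages too, with 11 of 20 higher at day 28, 12 at day 42 and 14 at day 1.

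Connective tissue genes lay beside the muscle genes. Among 28 genes of fibroblasts and their matrix, 16 were higher and 1 was lower, with a median of 1.32. LUM, a proteoglycan that spaces collagen fibrils, read 9.01, 8.69, 9.53 and 8.78 at day 14 and 9.64, 9.14, 9.65 and 9.48 at day 21 in duodenum, against 5.68, 5.55, 5.10 and 6.00 at day 14 and 5.31, 5.09, 5.58 and 4.99 at day 21 in jejunum. Its arrays did not overlap, the difference was 3.83 ± 0.17 (adjusted p = 3.77e-12), and it was 4.29, 3.83 and 3.68 at days 28, 42 and 1. Fibronectin, FN1 (3.22 ± 0.37), vimentin, VIM (3.04 ± 0.19), and the fibril collagen gene COL5A1 (3.02 ± 0.14) followed. For FN1, 3 of 7 other probe sets were called the same way, and the mean over all was 0.87, under the threshold. Among the leading genes, NID1, which encodes a basement membrane protein (3.66 ± 0.12), and CLEC3B, a plasminogen-binding protein (3.90 ± 0.19), were higher in all 8 duodenum arrays; the mean of the 3 NID1 probe sets was 1.09. The 1 lower member was PDGFRA, a growth factor receptor of fibroblasts, at 4.53 to 5.13 in duodenum and 6.18 to 6.96 in jejunum, both near the low end of the scale. Its difference was −1.70 ± 0.12, −1.56 at day 28 and 0.12 at day 42. In RNA from a tissue sample, fewer cells of a type and less RNA per cell cannot be told apart, and this touches every list below.

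Within the jejunum these lists varied from array to array. The mean level of the smooth muscle list was 8.82, 8.68, 8.96 and 8.57 at day 14 and 8.68, 8.59, 8.86 and 8.53 at day 21 in duodenum, against 7.60, 7.45, 6.99 and 7.48 at day 14 and 7.73, 7.00, 7.45 and 7.07 at day 21 in jejunum. Jejunum replicate 3 at day 14 and replicates 2 and 4 at day 21 were the lowest, as they were for the connective tissue list (6.30, 6.54 and 7.04). Without these 3 arrays, picked after their values were seen, the higher counts were 11 of 20 for smooth muscle and 14 of 28 for connective tissue.

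**Figure D2:**
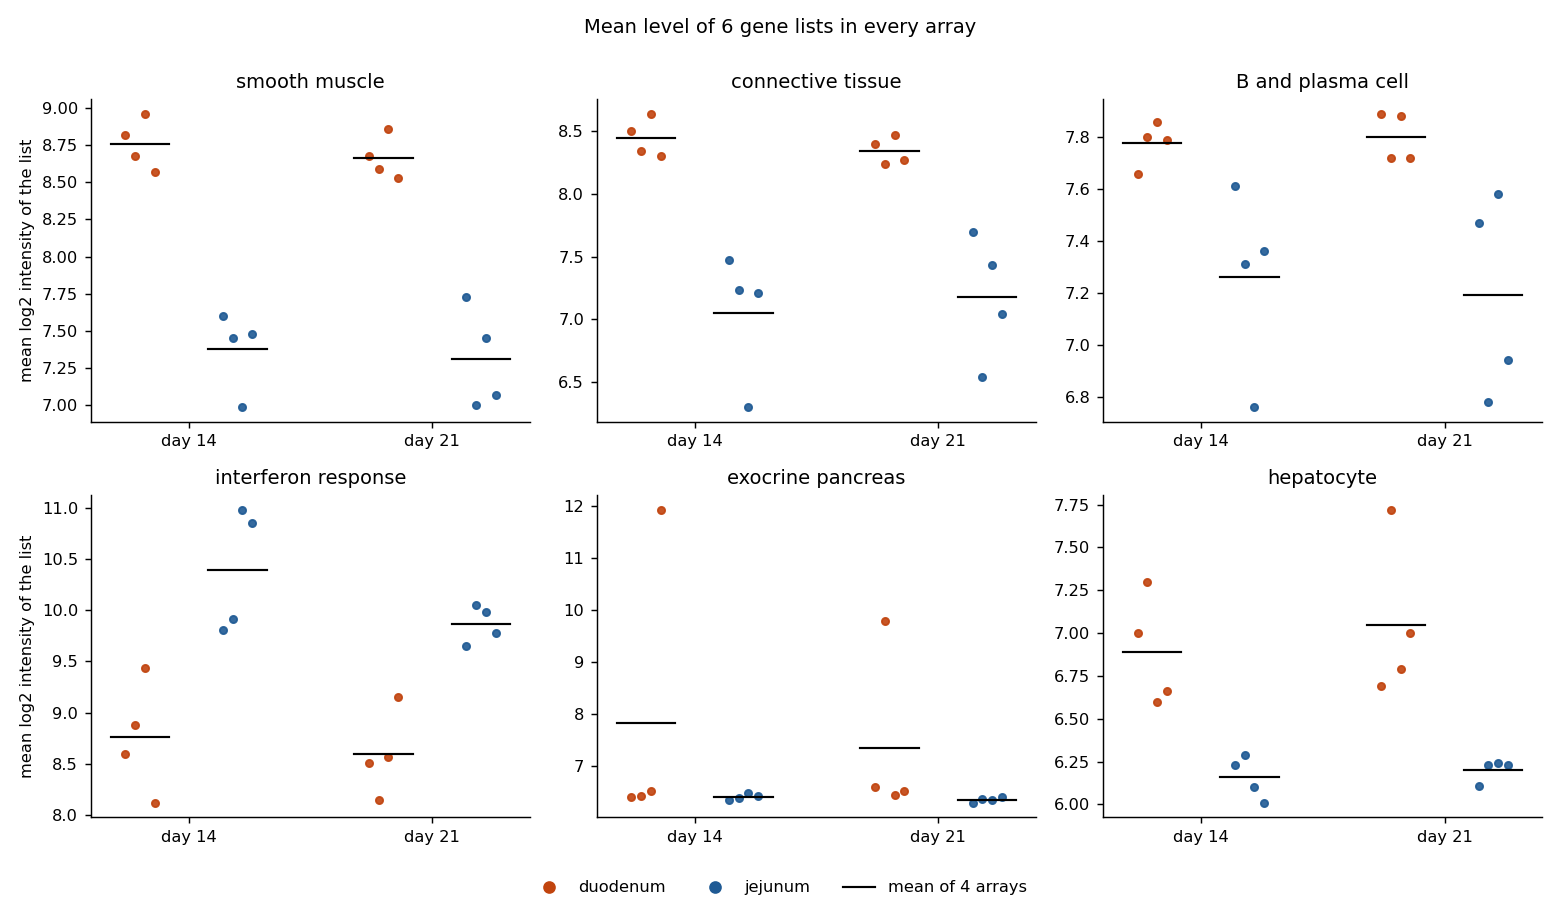
Mean log2 intensity of 6 gene lists in every array at days 14 and 21, duodenum beside jejunum, with the mean of 4 arrays as a bar. The smooth muscle and connective tissue lists are separate between the tissues, the interferon list is lower in duodenum, and 2 duodenum arrays stand far above the rest for the exocrine pancreas list (11.92 and 9.79).

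Of 20 genes of enteric neurons and glia, 6 were higher and 0 lower, beside 18% and 6.4% of all genes. At an unadjusted p under 0.05 in limma 9 were higher and 9 lower, and 10 of the 20 differences were positive. The median was 0.04, against 0.171 for all genes, and turned to −0.14 on the mean of probe sets. The genes named next were all called higher and do not stand for the list. VIP, the relaxing peptide of enteric neurons, read 9.64, 9.58, 10.34 and 9.29 at day 14 and 9.78, 9.35, 9.82 and 9.52 at day 21 in duodenum, against 6.13, 6.05, 5.82 and 6.08 at day 14 and 5.78, 6.10, 6.00 and 6.00 at day 21 in jejunum. The groups stood more than 3 log2 units apart with no overlap (3.67 ± 0.12, adjusted p = 9.74e-14), and the difference was 3.85, 2.81 and 2.79 at days 28, 42 and 1. The neuropeptide genes GAL (3.27 ± 0.12) and TAC1 (2.55 ± 0.15) were likewise higher at all these ages. UCHL1, a neuronal ubiquitin hydrolase, differed by 2.02 ± 0.08 on its brightest probe set and by 0.28 on the mean of its 3 probe sets.

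Of 24 islet and enteroendocrine genes, VIP and TAC1 included, 10 were higher and 4 lower, beside 18% and 6.4% of all genes. IAPP, which encodes amylin, a peptide of islet and gut endocrine cells, read 11.37, 10.32, 10.77 and 10.92 at day 14 and 10.26, 9.71, 10.45 and 10.42 at day 21 in duodenum, against 6.76, 7.19, 8.13 and 7.26 at day 14 and 7.13, 7.65, 7.15 and 6.99 at day 21 in jejunum. All duodenum arrays were above all jejunum arrays, with a difference of 3.25 ± 0.20 (adjusted p = 1.29e-10). It was 3.49 at day 28, 3.67 at day 42 and 2.04 at day 1. At day 1 markers of pancreatic acinar cells were also higher in duodenum, at 9.60 to 10.05 against 5.57 to 6.23 in jejunum. The part of pancreas in the day 1 difference was not tested. MLN, motilin, the hormone that sets off the migrating contractions of the fasting gut, read 10.36, 10.84, 10.10 and 9.90 at day 14 and 10.56, 9.93, 10.17 and 9.30 at day 21 in duodenum, against 7.32, 6.45, 8.69 and 7.93 at day 14 and 6.88, 5.88, 7.10 and 6.02 at day 21 in jejunum. Its arrays were also separate (3.11 ± 0.30), with 2.22 at day 28, 2.06 at day 42 and 0.52, not called, at day 1. Of the other classical hormones, named here after their values were seen, secretin, SCT, which calls for bicarbonate, differed by 1.59 ± 0.26, and cholecystokinin, CCK, which empties the gallbladder, by 1.42 ± 0.22. GIP, the glucose-dependent insulinotropic peptide, differed by 1.28 ± 0.31. SCT was also higher at days 28 (1.98) and 42 (1.79), and GIP at days 28 (2.12) and 1 (1.54). CCK differed by −0.67, not called, at day 42 and was lower at day 1 (−2.18).

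GCG, proglucagon, the precursor of the gut peptide GLP-1, went the other way. It read 5.68, 5.65, 5.64 and 5.64 at day 14 and 5.95, 6.17, 5.41 and 6.22 at day 21 in duodenum, against 9.16, 7.28, 9.12 and 7.63 at day 14 and 8.46, 8.22, 8.30 and 7.49 at day 21 in jejunum. Each jejunum array was above each duodenum array (−2.41 ± 0.25, adjusted p = 1.23e-07), and GCG was lower in duodenum at days 28 (−2.21), 42 (−2.48) and 1 (−1.79). A second GCG probe set was called in the opposite direction, and the mean of both differed by −0.40. The endocrine transcription factor genes PAX6 (−1.73 ± 0.10) and ISL1 (−1.04 ± 0.06, and −0.08 on the mean of 2 probe sets) and the pancreatic polypeptide gene PPY (−1.43 ± 0.12) were lower at days 14 and 21, with jejunum values no higher than 7.19. At day 42 these 3 genes differed by 0.29, −0.04 and 0.77, and none was called.

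**Figure D3:**
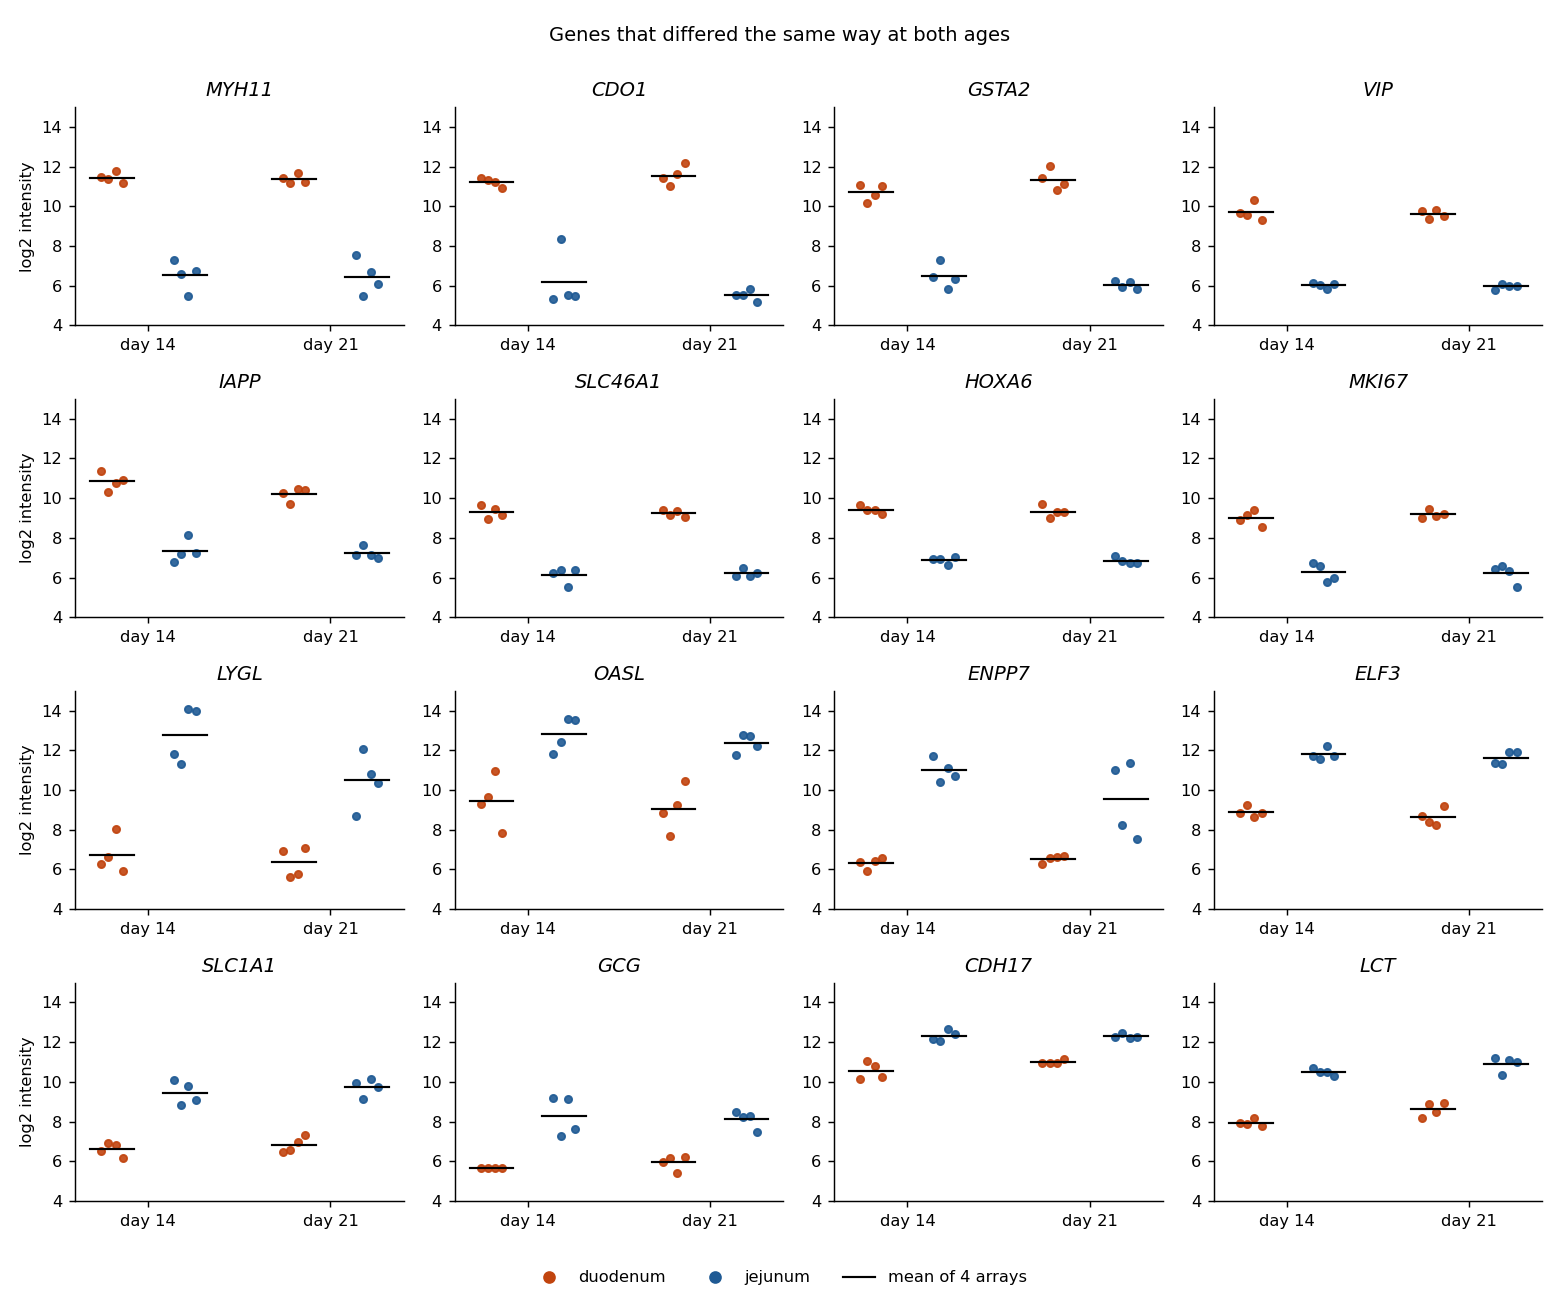
Log2 intensity of 16 genes in every array at days 14 and 21, duodenum beside jejunum, with the mean of 4 arrays as a bar and 1 panel per gene. The first 8 genes are higher in all 8 duodenum arrays (MYH11 by 4.91 and VIP by 3.67), and the last 8 are higher in all 8 jejunum arrays (LYGL differs by −5.09 and GCG by −2.41).

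Enzymes of the enterocyte surface were more often lower than higher in duodenum. Both tissues read high for enterocyte markers, with mean levels at day 14 of 11.86 to 11.96 in duodenum and 11.82 to 12.43 in jejunum. At day 21 the levels did not overlap (11.82 to 12.04 in duodenum and 12.16 to 12.44 in jejunum). Of these 8 markers 2 were called lower in duodenum and 0 higher. Of 20 brush border enzymes, 6 were lower in duodenum and 2 higher, the higher share below the 18% of all genes. ENPP7, the alkaline sphingomyelinase that begins the digestion of sphingomyelin, read 6.39, 5.92, 6.40 and 6.58 at day 14 and 6.25, 6.58, 6.60 and 6.69 at day 21 in duodenum, against 11.71, 10.42, 11.12 and 10.72 at day 14 and 11.01, 8.24, 11.37 and 7.52 at day 21 in jejunum. Duodenum was at the low end in all 8 arrays, and jejunum was higher in all 8, with replicates 2 and 4 of day 21 well below its other arrays. The difference was −3.84 ± 0.48 (adjusted p = 1.23e-06), −4.15 at day 42 and −5.54 at day 1, and −2.26 at day 28, where it was not called. LCT, the disaccharidase known as lactase in mammals, lay at 7.77 to 8.94 in duodenum and 10.30 to 11.22 in jejunum (−2.43 ± 0.14), and 2 of its 4 other probe sets were called the same way, with a mean of all of −1.40. The aminopeptidase genes ENPEP (−1.83 ± 0.19, and −1.01 on the mean of 2 probe sets) and ANPEP (−1.40 ± 0.12) and the starch-digesting MGAM (−1.46 ± 0.25) had no overlap within either age. SI, sucrase-isomaltase, read a median of 13.07 in duodenum and 13.27 in jejunum and was not called (−0.29 ± 0.32); the mean of its probe sets was, at −1.26.

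The 2 higher enzymes were TMPRSS15 and FOLH1. TMPRSS15, enteropeptidase, which activates trypsinogen as it enters the duodenum, read 9.23, 10.50, 10.90 and 9.96 at day 14 and 10.49, 10.91, 10.21 and 11.02 at day 21 in duodenum, against 6.59, 9.46, 8.96 and 6.32 at day 14 and 7.99, 9.76, 10.39 and 7.54 at day 21 in jejunum. Duodenum was higher on average (2.03 ± 0.49, adjusted p = 0.00109), but jejunum replicate 2 at day 14 and replicate 3 at day 21 lay within the duodenum range of their age. The gene was called at day 28 (2.67), day 42 (2.26) and day 1 (2.42). FOLH1, which trims dietary folate for uptake, differed by 1.32 ± 0.13 at days 14 and 21, by 0.06 at day 28 and by −0.64 at day 42, called at neither. On the mean of its 3 probe sets it differed by 0.52.

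Genes of the microvillus scaffold were lower or not called. Of 16 such genes, 5 were lower and 0 higher (2 at an unadjusted p under 0.05 in limma), with a median of −0.68. The lower counts were 6 at day 28, 6 at day 42 and 4 at day 1. MYO1A, the myosin that ties the microvillus core to its membrane, differed by −1.71 ± 0.06, but by −0.98 at day 28 and −0.71 at day 42, called at neither. The cadherin CDHR5, which links the tips of microvilli, differed by −1.70 ± 0.14. CDH17, the intestinal cadherin, read 10.16, 11.07, 10.81 and 10.23 at day 14 and 10.94, 10.95, 10.96 and 11.13 at day 21 in duodenum, against 12.18, 12.07, 12.68 and 12.39 at day 14 and 12.24, 12.45, 12.21 and 12.26 at day 21 in jejunum. There was no overlap (−1.53 ± 0.13, adjusted p = 1.50e-08), and the gene was lower at days 28 (−1.82) and 42 (−1.94), though not called at day 1 (−0.70). At the junctions between cells, 4 of 19 genes were lower and 2 higher, the higher share below the 18% of all genes. The lower ones included E-cadherin, CDH1 (−1.99 ± 0.07), and the claudin gene CLDN3 (−2.17 ± 0.14). At day 42 CDH1 differed by −0.86 and CLDN3 by −0.70, neither called.

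Of 12 sugar genes, 4 were lower in duodenum and 1 was higher, the higher share below the 18% of all genes. The lower count was 2 with arrays centred on their median and 2 on the mean of probe sets. It was also 2 at day 21 alone and 2 at day 28. SLC2A2, the basolateral exit for glucose and fructose, lay at 7.08 to 7.97 in duodenum and 8.73 to 10.49 in jejunum (−2.11 ± 0.19), with −1.76, called, at day 42. FBP1, an enzyme of glucose synthesis, was the higher member (1.65 ± 0.17). For peptides and amino acids the counts were 2 higher and 3 lower of 15, the higher share below the 18% of all genes. SLC1A1, the glutamate and aspartate carrier, read 6.49, 6.94, 6.81 and 6.15 at day 14 and 6.46, 6.59, 6.96 and 7.33 at day 21 in duodenum, against 10.10, 8.83, 9.78 and 9.08 at day 14 and 9.96, 9.15, 10.14 and 9.76 at day 21 in jejunum. The arrays were separate at both ages (−2.88 ± 0.20, adjusted p = 5.76e-10), and the gene was lower at days 28 (−2.92), 42 (−1.88) and 1 (−1.99); of its 2 other probe sets, 1 was called the same way and 1 the opposite way. The mean of the 3 differed by −1.52. SLC3A1, which carries the cystine transporter to the membrane, was lower (−1.81 ± 0.14), whereas its partner SLC7A9 was higher (1.59 ± 0.20, and 1.00 on the mean of 3 probe sets). At day 1 SLC7A9 was lower instead (−1.64).

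With age as a block the bile acid carriers FABP6 and SLC10A2 were higher in jejunum, with a wide spread between its arrays. FABP6, the carrier of bile acids inside enterocytes, read 6.18, 6.01, 6.02 and 6.25 at day 14 and 5.96, 6.40, 6.08 and 5.77 at day 21 in duodenum, against 13.01, 10.76, 9.93 and 12.96 at day 14 and 7.63, 8.57, 9.46 and 6.28 at day 21 in jejunum. Duodenum read no more than 6.40 in all 8 arrays, while jejunum spread from the duodenum range to 13.01. The mean difference was −3.74 ± 0.63 (adjusted p = 3.52e-05), with −1.92 at day 42 and −5.37 at day 1, both called, and −2.78 at day 28, not called. The mean of its 3 probe sets differed by −1.81. SLC10A2, the sodium-driven importer of bile acids, lay at 5.53 to 6.54 in duodenum and 6.32 to 10.26 in jejunum (−1.70 ± 0.42). Of this list of 12, 3 were lower and 1 was higher, the higher share below the 18% of all genes. The higher one was ABCB11, the bile salt export pump (2.17 ± 0.24), which was also higher at days 28 (1.98), 42 (2.04) and 1 (3.20). Its arrays overlapped at day 14, where duodenum replicate 3 read 7.24 and jejunum replicate 2 read 7.46. Jejunum replicate 4 read 9.04 at day 28, above every duodenum array, and 9.70 at day 42, within the duodenum range. Within single ages the list had 1 higher and 4 lower at day 14, but 3 higher and 2 lower at day 21. The stricter rule, which asks for both ages, kept 1 of the 12.

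Of the fat absorption genes, 6 of 28 were lower, FABP6 among them, and 2 higher. The higher share was below the 18% of all genes and the lower share above the 6.4%. The median of the list was −0.2, but 0.54 at day 28, where 6 were higher and 6 lower. It was −0.5 at day 42 (3 higher and 4 lower) and −0.99 at day 1 (1 higher and 11 lower). MTTP, which loads fat onto lipoprotein particles, lay at 8.09 to 9.44 in duodenum and 10.23 to 11.35 in jejunum (−2.06 ± 0.16) and differed by −2.46 at day 42. The lipid droplet gene PLIN2 differed by −1.67 ± 0.34 and the triglyceride synthase gene DGAT2 by −1.28 ± 0.21. CD36, a fatty acid receptor, was higher (2.50 ± 0.33), as it was at day 28 (2.11), but by 0.51, not called, at day 42. Of 15 fatty acid synthesis genes, FASN, the fatty acid synthase (2.35 ± 0.15, and 1.31 on the mean of 2 probe sets), and ME1, the malic enzyme that supplies its NADPH (2.64 ± 0.30), were higher and 2 were lower. The higher share is below the 18% of all genes called higher. ME1 was higher at every other age (2.65 at day 1, 3.12 at day 28 and 3.75 at day 42).

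With age as a block, genes of iron, heme and vitamin handling were called higher in duodenum or not called. Within single ages 1 iron and heme gene was lower at day 14 and 1 vitamin gene was lower at day 21. The share of all genes called higher with age as a block was 18%. Among 16 iron and heme genes, 5 were higher and 0 lower (2 lower at an unadjusted p under 0.05 in limma). SLC46A1, the proton-coupled folate transporter, which also carries heme, read 9.64, 8.95, 9.44 and 9.17 at day 14 and 9.38, 9.13, 9.36 and 9.07 at day 21 in duodenum, against 6.22, 6.37, 5.52 and 6.39 at day 14 and 6.07, 6.46, 6.08 and 6.24 at day 21 in jejunum. The arrays were separate (3.10 ± 0.13, adjusted p = 1.29e-12), and the difference was 0.01 at day 1, 2.40 at day 28 and 1.71 at day 42, called at the last 2. The mean of its 2 probe sets differed by 1.49. The ferritin gene FTL was higher by 1.46 ± 0.11. Ferroportin, SLC40A1, which exports iron to the blood, differed by 0.97 ± 0.15 and fell just short of the threshold. Under quantile normalization, and also on the mean of probe sets, 3 iron and heme genes were higher. On other arrays 4 of this list were higher and 0 lower at day 28, 3 and 1 at day 42, and 5 and 3 at day 1. Among 14 vitamin and cofactor genes, 5 were higher, SLC46A1 among them, with RBP4, the retinol carrier (1.71 ± 0.14), and the vitamin C transporter gene SLC23A2 (1.26 ± 0.15). SLC23A2 was not called under quantile normalization (0.88) or on the mean of its 5 probe sets (0.39). Under quantile normalization 3 genes of the vitamin and cofactor list were higher and 1 was lower. Its median was 0.67 at days 14 and 21 and 0.25 at day 28 (4 higher and 0 lower). It was −0.26 at day 42 (3 higher and 1 lower) and −0.03 at day 1 (2 higher and 3 lower).

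Acid, salt and water handling showed both directions, with 6 of 37 genes higher and 8 lower. The higher share is below the 18% of all genes, and the lower share is above the 6.4%. On the mean of probe sets 4 were lower. The water channel genes AQP5 (1.94 ± 0.16, and 2.96 on the mean of 3 probe sets) and AQP1 (1.75 ± 0.14) were higher and recurred at day 28 (1.84 and 2.14), day 42 (1.88 and 2.39) and day 1 (1.95 and 2.38). CA2, a carbonic anhydrase that forms bicarbonate, read 10.18 to 11.56 in duodenum and 8.49 to 10.05 in jejunum (1.64 ± 0.24). The sodium-hydrogen exchanger gene SLC9A2 was lower (−2.47 ± 0.19), as at days 28 (−2.50) and 42 (−1.46). Of 9 genes of upper gut defence, 3 were higher and 0 lower, with a median of −0.14 against 0.171 for all genes. At an unadjusted p under 0.05 in limma, 4 were higher and 3 lower. The 3 called were CA2, the lectin REG4 (2.29 ± 0.57) and lysozyme, LYZ (2.02 ± 0.55, and 0.53, not called, on the mean of 2 probe sets). The mucus genes FCGBP (−1.47 ± 0.15, and −0.79, not called, on the mean of 6 probe sets) and CLCA1 (−1.46 ± 0.22) were lower and the trefoil peptide gene TFF3 (1.49 ± 0.18) was higher, out of 13 goblet cell genes. In that list too the higher share was below the 18% of all genes. MUC2, the main mucin, differed by −0.65 ± 0.12 and was not called; the mean of its 3 probe sets, at −1.28, was.

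CDO1 had the largest difference toward the duodenum of all genes tested, each on its brightest probe set. Its product, cysteine dioxygenase, oxidises cysteine on the way to taurine and sulfate. CDO1 read 11.42, 11.31, 11.20 and 10.93 at day 14 and 11.40, 11, 11.62 and 12.18 at day 21 in duodenum, against 5.35, 8.33, 5.54 and 5.48 at day 14 and 5.53, 5.51, 5.83 and 5.20 at day 21 in jejunum. Jejunum replicate 2 at day 14 was its brightest jejunum array, and it still lay more than 2 units below every duodenum array. The mean difference was 5.54 ± 0.35 (adjusted p = 2.68e-10), with 5.81 at day 28 and 5.73 at day 42, but 0.34, not called, at day 1. GSTA2, a glutathione transferase, read 11.09, 10.19, 10.59 and 11.04 at day 14 and 11.41, 12.04, 10.81 and 11.11 at day 21 in duodenum, against 6.45, 7.27, 5.82 and 6.34 at day 14 and 6.21, 5.91, 6.16 and 5.85 at day 21 in jejunum. It had no overlap (4.78 ± 0.24, adjusted p = 1.20e-11) and was called at days 1 (3.44), 28 (4.40) and 42 (4.99).

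Of 39 genes of xenobiotic and steroid metabolism, 16 were higher in duodenum and 2 lower, with a median of 0.73. GSTA3, a second glutathione transferase of the same class, lay at 12.69 to 14.09 in duodenum and 7.93 to 11.85 in jejunum (3.93 ± 0.48) and differed by 5.58 at day 28, 5.19 at day 42 and 4.26 at day 1. The cytochrome gene CYP2C18 differed by 3.75 ± 0.60, although its range of 11.02 to 12.62 in duodenum overlapped that of 5.64 to 11.22 in jejunum. ADH1C, an alcohol dehydrogenase, differed by 3.48 ± 0.32, and the mean of its 3 probe sets by 0.98. The 2 lower members were POR, the electron donor of cytochromes P450 (−1.39 ± 0.18), and the cytochrome gene CYP3A4 (−1.16 ± 0.23). Among the leading genes outside this list, DCXR, an enzyme of xylulose metabolism, read 11.24, 10.83, 11.15 and 11.39 at day 14 and 11.04, 11.40, 11.04 and 10.85 at day 21 in duodenum, against 5.87, 7.07, 5.96 and 6.48 at day 14 and 6.71, 6.45, 6.55 and 6.42 at day 21 in jejunum. Its 8 duodenum arrays lay within 1 log2 unit of each other and far above jejunum (4.68 ± 0.15), and the gene was higher at days 1 (2.78), 28 (4.01) and 42 (3.47). RIDA, which clears reactive enamines (3.71 ± 0.25), and ETFBKMT, a methyltransferase that acts on an electron carrier of mitochondria (3.69 ± 0.17), were also separate between the tissues. MT3, listed as a metallothionein that binds zinc and copper, differed by 3.66 ± 0.34; it was called at day 28 (2.40) and not at day 42 (1.57).

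Interferon-stimulated genes were lower in duodenum or not called. Of 24 such genes, 16 were lower in duodenum and 0 were higher (0 higher at an unadjusted p under 0.05 in limma), with a median of −1.33. OASL, an antiviral protein related to the oligoadenylate synthetases, read 9.31, 9.67, 10.97 and 7.81 at day 14 and 8.86, 7.67, 9.24 and 10.44 at day 21 in duodenum, against 11.80, 12.41, 13.59 and 13.55 at day 14 and 11.78, 12.75, 12.72 and 12.23 at day 21 in jejunum. Values spread by more than 1 log2 unit within each tissue, yet the tissues did not overlap (−3.36 ± 0.42, adjusted p = 1.39e-06). LY6E, which limits virus entry (−2.93 ± 0.33, and −1.38 on the mean of 3 probe sets), RSAD2, known as viperin (−2.68 ± 0.48), and MX1, an antiviral GTPase (−2.54 ± 0.46), followed; for the last 2 some arrays of the tissues overlapped. On other arrays 18 of the 24 were lower at day 42 and 19 at day 1, but 5 at day 28, where OASL differed by −0.60 and LY6E by −0.35, neither called. The mean level of the list ranged over 8.12 to 9.44 in duodenum and 9.65 to 10.98 in jejunum, with jejunum replicates 3 and 4 of day 14 the highest. Beside it, the mean level of the T cell markers (3 of 4 tested) was 10.93 to 11.56 in duodenum and 10.91 to 11.72 in jejunum at day 14, and 10.74 to 11.31 in duodenum and 11.28 to 12.16 in jejunum at day 21. Their part in the result was not tested.

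LYGL had the largest difference toward the jejunum of all genes tested, each on its brightest probe set. This gene, for a goose-type lysozyme that cuts bacterial cell walls, read 6.27, 6.64, 8.05 and 5.94 at day 14 and 6.92, 5.64, 5.76 and 7.08 at day 21 in duodenum, against 11.79, 11.29, 14.07 and 13.99 at day 14 and 8.69, 12.06, 10.82 and 10.35 at day 21 in jejunum. Jejunum was higher in every array, its highest being the same replicates 3 and 4 of day 14. The difference was −5.09 ± 0.55 (adjusted p = 2.01e-07), with −5.92 at day 1 and −2.31 at day 42, and −1.51, not called, at day 28. The related LYG2 differed by −2.84 ± 0.36 and by 0.55 at day 28. PLAC8L1 (−4.08 ± 0.48), GPRC5A, an orphan receptor (−3.06 ± 0.35), and TMC7, a membrane channel-like protein (−2.92 ± 0.21), were among the leading lower genes; GPRC5A and TMC7 were lower at all 3 other ages.

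Of 19 T cell and cytotoxic genes, 0 were higher and 0 lower in limma at the threshold with age as a block (1 was higher at day 14 alone), with 2 and 7 at an unadjusted p under 0.05. CD3D, part of the T cell receptor complex, read a median of 11.13 in duodenum and 11.20 in jejunum (−0.04 ± 0.16). Antibody genes were uneven. JCHAIN, which joins secreted antibodies, read 11.34, 12.62, 12.69 and 11.73 at day 14 and 12.51, 11.86, 12.44 and 12.09 at day 21 in duodenum, against 12.07, 10.40, 6.41 and 10.90 at day 14 and 11.37, 6.72, 11.77 and 6.67 at day 21 in jejunum. Duodenum was high in all 8 arrays, while jejunum replicate 3 of day 14 and replicates 2 and 4 of day 21 were more than 3 log2 units below the other jejunum arrays. The difference of 2.62 ± 0.82 was 0.83, no longer called, without these 3 arrays. They were picked after their low values were seen, so a smaller difference without them follows from that choice. Of 17 B and plasma cell genes 6 were higher, beside 18% of all genes. Without those arrays 3 were higher, near that share. At day 28 JCHAIN differed by 5.20 and at day 42 by 4.85. At day 1 it was lower in duodenum (−6.30 ± 0.40, adjusted p = 6.04e-14). The T cell markers averaged 6.25 to 6.69 in the duodenum arrays and 11.22 to 11.83 in the jejunum arrays titled day 1, against 10.37 to 12.16 in both tissues at days 14 to 42. All differences of day 1, the immune and interferon ones included, stand beside this gap, and its part in them was not tested.

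Cell cycle genes were more often higher than lower in duodenum. Of 36 cell cycle genes, 14 were higher and 2 lower, with a median of 0.58. The higher counts were 15, 19 and 28 at days 28, 42 and 1. In duodenum the mean level of the list was 8.36 to 8.81 at day 1 and 7.37 to 7.95 at days 14 to 42. In jejunum it was 6.56 to 6.79 at day 1 and 6.41 to 7.17 at days 14 to 42. MKI67, a marker of cycling cells, read 8.89, 9.15, 9.42 and 8.57 at day 14 and 8.99, 9.45, 9.10 and 9.20 at day 21 in duodenum, against 6.73, 6.57, 5.78 and 6.00 at day 14 and 6.43, 6.58, 6.32 and 5.53 at day 21 in jejunum. There was no overlap (2.85 ± 0.17, adjusted p = 1.23e-10), and the difference was 3.14, 2.85 and 1.77 at days 1, 28 and 42. HMGB2, a chromatin protein of dividing cells (2.29 ± 0.13), and RRM2, which makes deoxynucleotides (2.20 ± 0.09), were higher at all ages too. Against them TK1, thymidine kinase, was lower (−2.07 ± 0.12), as at day 28 (−1.92), but differed by 0.04, not called, at day 42. Under quantile normalization 9 of the 36 were higher, while the higher calls among all genes went from 2255 to 1523. OLFM4, a marker of intestinal crypts, differed by 2.16 ± 0.46 (1.33 on the mean of 2 probe sets). MYC, a growth factor-induced transcription factor, differed by 2.05 ± 0.18. Of 19 crypt genes 5 were higher and 1 was lower, beside 18% and 6.4% of all genes.

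Of 43 ribosomal protein genes, 17 were higher and 0 lower (2 lower at an unadjusted p under 0.05 in limma), with a median of 0.94. RPS29 lay at 13.51 to 13.90 in duodenum and 10.71 to 11.65 in jejunum (2.38 ± 0.12), and RPS2 differed by 2.16 ± 0.17. At day 1 RPS29 was lower instead (−1.52). Of 38 respiratory chain genes, 10 were higher, beside 18% of all genes. NDUFB9 (1.92 ± 0.13) and NDUFA9 (1.61 ± 0.10), both of complex I, led them. Under quantile normalization 5 of the 38 were higher, while the higher calls among all genes went from 2255 to 1523. Of 32 genes of the endoplasmic reticulum, 5 were higher, among them CRELD2 (2.89 ± 0.20) and the translocon gene SSR3 (2.18 ± 0.13). That share is below the 18% of all genes called higher. FAM96A, an iron-sulfur assembly factor (3.83 ± 0.09, and 1.13 on the mean of 5 probe sets), and ABCE1, which recycles ribosomes (3.80 ± 0.12), were among the 15 leading higher genes. At day 42 FAM96A differed by 2.40, called, and ABCE1 by 0.85, not called.

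**Figure D4:**
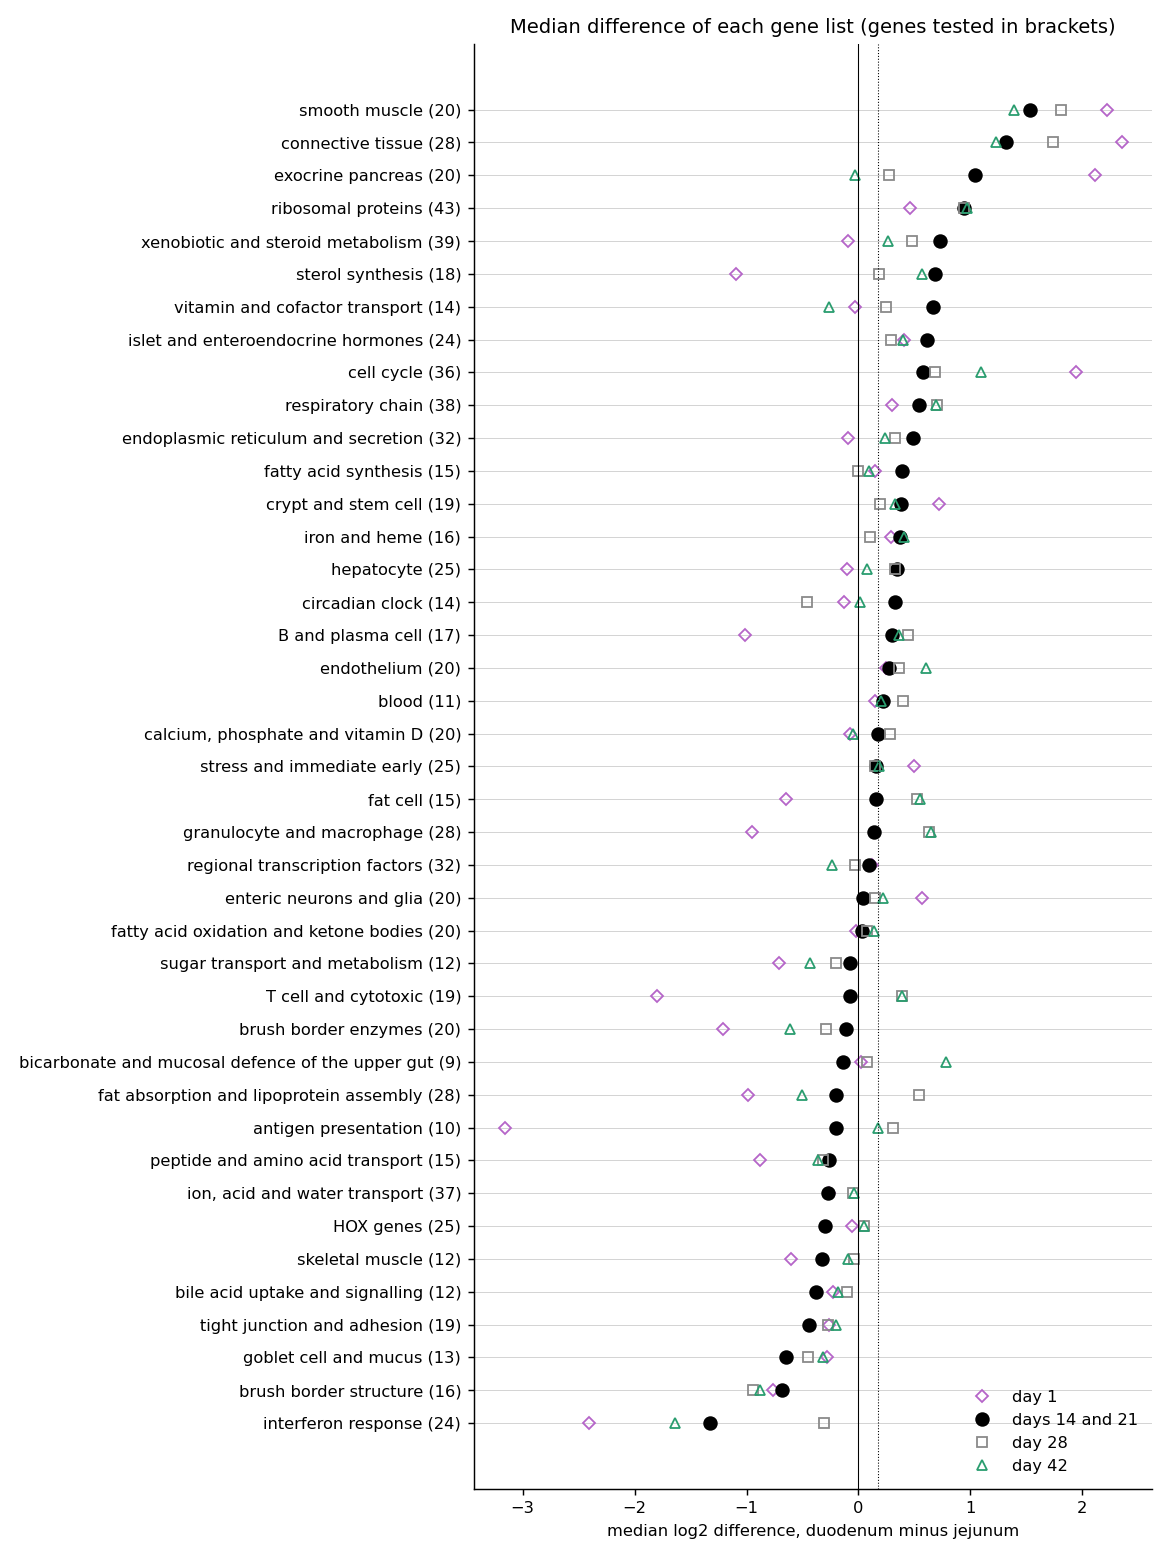
Median log2 difference, duodenum minus jejunum, of each of 41 gene lists, with the number of genes tested in brackets and 1 symbol per age or pair of ages. The dotted line is the median of all genes at days 14 and 21 (0.171). The smooth muscle (1.53) and connective tissue (1.32) lists lie furthest to the right and the interferon list (−1.33) furthest to the left at days 14 and 21.

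Among regulators of gut position, HOXA6, a homeobox gene that patterns the body axis, read 9.64, 9.38, 9.41 and 9.19 at day 14 and 9.69, 9.01, 9.28 and 9.32 at day 21 in duodenum, against 6.94, 6.91, 6.65 and 7.05 at day 14 and 7.06, 6.83, 6.75 and 6.75 at day 21 in jejunum. It was higher in all 8 duodenum arrays (2.50 ± 0.10, adjusted p = 5.09e-13) and at days 1 (3.63), 28 (2.00) and 42 (2.45). The mean of its 2 probe sets differed by 1.03. HOXA4, of the same cluster, differed by 1.26 ± 0.08. Of 25 HOX genes, 2 were higher, a share below the 18% of all genes, and 2 were lower, near the 6.4% of all genes. The lower ones, HOXA3 (−1.78 ± 0.10, and −0.52, not called, on the mean of 2 probe sets) and HOXB6 (−1.72 ± 0.09), had duodenum values no higher than 5.62 and differed by −0.18 and 0.06 at day 42. Of 32 regional transcription factors, 3 were higher and 1 was lower, both below the shares of all genes (18% and 6.4%). The lower one, ELF3, an epithelial ETS factor, read 8.85, 9.26, 8.66 and 8.86 at day 14 and 8.70, 8.38, 8.24 and 9.20 at day 21 in duodenum, against 11.71, 11.54, 12.20 and 11.70 at day 14 and 11.36, 11.30, 11.92 and 11.90 at day 21 in jejunum. No array of one tissue entered the range of the other (−2.94 ± 0.15, adjusted p = 1.37e-11), and the gene was lower at days 1 (−1.66), 28 (−2.83) and 42 (−2.42). MEIS2, a HOX cofactor, was higher by 2.02 ± 0.08 on its brightest probe set and by 0.87 on the mean of its probe sets. The intestinal factors CDX1 (−0.17 ± 0.14), CDX2 (0.14 ± 0.14), GATA4 (−0.64 ± 0.16) and GATA6 (0.10 ± 0.12) were not called.

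The remaining leading lower genes differed in how far they recurred on other arrays. FAT1, a giant cadherin, lay at 5.65 to 7.07 in duodenum and 10.20 to 10.51 in jejunum (−3.88 ± 0.14), with −4.20 at day 28, −2.54 at day 42 and 0.58, not called, at day 1. On the mean of probe sets FAT1 differed by −1.53, CAMK1G by −1.38 and BACH1 by −1.42. ABCD3, a peroxisomal transporter (−3.72 ± 0.19), and CAMK1G, a calcium-dependent kinase (−3.04 ± 0.18), were lower at days 28 and 42. KLF6, an early-response factor of the stress list and not among the 15, was lower (−2.20 ± 0.13), as it was at days 1, 28 and 42. PPM1H, a phosphatase, read 3.75, 3.69, 3.84 and 3.61 at day 14 and 3.73, 3.76, 3.90 and 3.87 at day 21 in duodenum, against 6.55, 6.82, 7.13 and 6.90 at day 14 and 6.76, 6.50, 6.93 and 7.03 at day 21 in jejunum. All its duodenum values were near the lowest value of the array, its difference was −3.06 ± 0.09, and it was 0.16 at day 42 and −0.45 at day 1. BACH1, a heme-sensing repressor, differed by −3.10 ± 0.18, with −0.99, not called, at day 42. Of the 15 leading higher genes, 15 were called the same way at day 28, 11 at day 42 and 10 at day 1. Of the 15 leading lower genes these counts were 9, 13 and 11.

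Pancreas genes marked 2 duodenum arrays. Of 20 genes of the exocrine pancreas, 5 were higher and 0 lower (0 lower at an unadjusted p under 0.05 in limma). The share of all genes called higher was 18%. PLA2G1B, pancreatic phospholipase, read 6.89, 6.80, 7.07 and 14.53 at day 14 and 7.10, 11.25, 6.70 and 6.82 at day 21 in duodenum, against 6.17, 6.31, 6.26 and 5.97 at day 14 and 5.90, 6.08, 6.29 and 6.18 at day 21 in jejunum. The values of replicate 4 at day 14 and replicate 2 at day 21 stood far above the rest. The mean level of 6 markers of acinar cells, which make digestive enzymes (6 of 8 on the array), was 5.58 to 13.33 in duodenum at day 14 and 5.69 to 11 at day 21, against 6.01 to 6.18 in jejunum. It was 9.60 to 10.05 in duodenum and 5.57 to 6.23 in jejunum at day 1. Without these 2 arrays, picked after their values were seen, 1 gene of the list was higher and 1 lower. PLA2G1B then differed by 0.75, under the threshold. Its call was also lost, at adjusted p up to 0.0826, without duodenum replicate 2 of day 21, any jejunum array of day 14 or jejunum replicate 1 of day 21. Insulin, INS, followed the same arrays, at 5.83, 6.02, 5.92 and 9.58 in duodenum at day 14 and 6.10, 7.06, 5.84 and 5.92 at day 21, against 4.62 to 4.69 in jejunum. IAPP was not highest in those arrays. Of 25 liver genes, 9 were higher, beside 18% of all genes, and 8 without the same 2 arrays. TTR, the thyroid hormone carrier, read 9.07, 9.94, 8.51 and 9.08 at day 14 and 7.73, 10.05, 8.26 and 8.38 at day 21 in duodenum, against 4.78, 4.85, 4.75 and 4.91 at day 14 and 5.28, 4.79, 5.30 and 5.07 at day 21 in jejunum. It was higher in every duodenum array (3.91 ± 0.28) and called at days 1 (3.10) and 28 (2.72), not at day 42 (0.32). ALB, albumin, spread over 6.59 to 12.36 in duodenum and lay at 6.45 to 6.96 in jejunum (2.62 ± 0.69).

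Age changed the tissue difference in 3 genes (0.024%), by the test of the day 21 difference minus the day 14 difference, 1 toward a higher difference (0.00799%) and 2 toward a lower one (0.016%). COL6A2, a collagen VI chain, read 9.19, 9.73, 9.51 and 9.32 in duodenum and 10.45, 10.60, 10.70 and 10.96 in jejunum at day 21. At day 14 it read 9.83, 9.65, 9.10 and 10.38 in duodenum and 6.61, 6.65, 6.38 and 6.44 in jejunum. Duodenum was lower at day 21 and higher at day 14, without overlap at either age, and the change was −4.46 ± 0.29 (adjusted p = 7.04e-07), with −4.67 to −2.23 over the alternative fits. At days 28 and 42 duodenum was lower as well (−1.81 and −1.25). PCK1, which makes phosphoenolpyruvate for glucose synthesis, had a difference of −0.47 ± 0.28 at day 21 and 2.08 ± 0.28 at day 14, a change of −2.54 ± 0.40 (adjusted p = 0.0368). Its jejunum arrays read 10.25, 9.43, 10.35 and 10.38 at day 21 and 7.88, 7.97, 6.97 and 6.96 at day 14. CSNK1E, a kinase of the circadian clock, had a difference of 2.81 ± 0.34 at day 21 and −0.24 ± 0.34 at day 14, a change of 3.05 ± 0.49 (adjusted p = 0.0368). Its jejunum arrays read 7.03, 6.62, 5.91 and 5.78 at day 21 and 7.41, 8.35, 8.52 and 7.68 at day 14. COL6A2 passed in all 27 alternative fits, PCK1 in 14 and CSNK1E in 13, with adjusted p up to 0.0971 for PCK1 and 0.136 for CSNK1E.

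Between the ages themselves few genes moved within a tissue. In jejunum 23 genes were called at day 21 against day 14 (0.184%), 16 higher (0.128%) and 7 lower (0.0559%), and in duodenum 0 were (0%), with 1303 and 1384 genes at an unadjusted p under 0.05 in limma; of these, 85 in jejunum and 25 in duodenum differed by at least 1. Whether an age change differed between the tissues was tested for every gene, and passed for the 3 genes above.

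**Figure D5:**
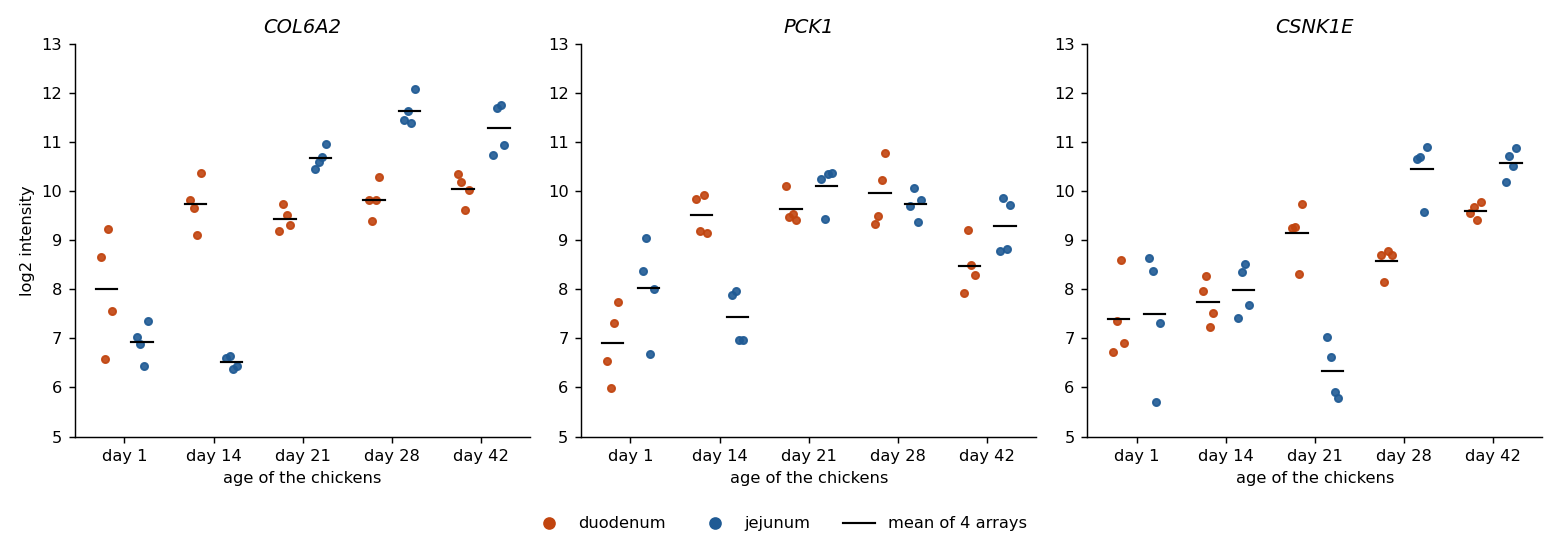
Log2 intensity of COL6A2, PCK1 and CSNK1E in every duodenum and jejunum array by age in days, with the mean of 4 arrays as a bar. In jejunum COL6A2 lies at 6.38 to 6.65 at day 14 and at 10.45 to 10.96 at day 21, while in duodenum it lies between 9.10 and 10.38 at both ages.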

How the data were processed

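Total RNA of chicken duodenum and jejunum was read on Affymetrix Chicken Genome arrays. The authors deposited log2 values per probe set, made with Affymetrix Expression Console 1.1 per the submitters' processing notes; their normalization is not stated in the labels or headers, and they carry no detection calls. The number of arrays limits the precision. Probe sets were named from the platform annotation and updated by gene number: of 38535 probe sets 96 were controls, 27168 had 1 symbol, 177 had several and 11094 none. Each gene was read from its brightest probe set. Genes whose highest group mean was under the 25th percentile (5.7) were left out, which kept 12514.

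limma 3.58.1 was fitted to the 16 arrays as age plus tissue, with Benjamini-Hochberg adjustment over all genes, and as 4 group means for each age and for the change with age. Days 28, 42 and 1 were fitted separately. Calls needed both an adjusted p below 0.05 and a change of 1 or more on the log2 scale. The text names the 15 strongest genes each way, up to 4 called genes per list and direction, cell markers and genes whose difference changed with age. The gene lists and members were chosen with earlier results of these data known. On simulated data 97 of 100 genes changed by 1.5 log2 units and 100 of 100 changed by 2 were recovered, with 0 false calls. The simulated noise was normal and independent for each gene and array. It held no technical step between the tissues, so the 0 says nothing of false calls from such a step. Alternatives were another scaling, filter, probe set rule, moderation, covariate and the omission of arrays. Promoter sequences were not used here, so the planned motif search was not made.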

Additional observations from a re-analysis of the deposited data

Results flagged for a closer look

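4 array measures had 1 array far from the other 3 of its group by Dixon's gap over range, which chance flags in about 1 in 20 groups of 4. The median of the duodenum arrays of day 21 had a ratio of 1.0, because 3 arrays read the same to 2 decimals. The 99th percentile in duodenum at day 14 had a ratio of 0.833, the GAPDH 3′ minus 5′ difference in jejunum at day 21 one of 0.881, and the actin 3′ minus 5′ difference in duodenum at day 21 one of 0.957. Among 29 genes whose arrays are printed, tested in 4 groups each (116 tests), 8 groups had 1 such array. These were ADIPOQ (0.862) and CDH17 (0.895) in duodenum at day 21, CDO1 in jejunum at day 14 (0.936), INS in duodenum at day 14 (0.949), PCK1 in duodenum (0.841) and in jejunum (0.863) at day 21, and PLA2G1B in duodenum at day 14 (0.965) and day 21 (0.912).

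The tissue difference changed between days 21 and 14, by the test of that change, for COL6A2 (−4.46), PCK1 (−2.54) and CSNK1E (3.05).

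Of the 4 poly-A controls, RNAs added to the sample and not part of the tissue, 3 separated the tissues at days 14 and 21. The lowest duodenum array lay above the highest jejunum array by 2.88 log2 units for dap, 0.59 for lys and 0.43 for phe. The control thr overlapped, at 5.86 to 6.34 in duodenum and 6.15 to 6.38 in jejunum at day 14, and at 6.07 to 7.13 in duodenum and 6.08 to 6.55 in jejunum at day 21.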

How the results depend on the processing

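The count of 3056 calls was 2706 under quantile normalization, 3207 with arrays centred and 2114 on the mean of probe sets, and 3008 to 3126 without 1 array each. With an adjusted p alone and no fold threshold it was 9812, of which 5876 were higher and 3936 lower. Replicate numbers showed no sign of pairing the samples (correlations of −0.043 to 0.113, 1 of 8 arrays closest to its own number), and the replicate block gave 3057 calls. The labels did not say whether arrays with equal numbers came from the same bird, and these correlations in groups of 4 cannot decide it. The 3 genes whose tissue difference changed with age became 9 under quantile normalization and 13 with array weights, and 1 to 20 without 1 array each (20 without jejunum replicate 2 of day 14). In duodenum the 0 genes between days 21 and 14 became 2 on the mean of probe sets, 2 with array weights, 3 with trend and robust moderation, 4 without the 2 pancreas-rich arrays and 4 without the 2 arrays high in actin 3′ signal, and 0 to 11 without 1 array each (11 without duodenum replicate 2 of day 14). The 23 jejunum genes became 15 on the mean of probe sets, 15 without the pancreas-rich arrays and 5 without the 3 low jejunum arrays, and 8 to 72 without 1 array each (72 without jejunum replicate 2 of day 14 and 8 without its replicate 4). On the mean of probe sets VWF reversed to −0.14 and PLIN1 to 0.09. Of 192 named genes called, 170 kept their call under quantile normalization and 152 on the mean of probe sets. Sterol synthesis calls went to 1 higher and 1 lower under quantile normalization, to 2 higher on the mean of probe sets and to 3 higher without the 3 low jejunum arrays. Interferon calls numbered 13 without the pancreas-rich arrays and 21 under quantile normalization, endothelial calls 2 higher and brush border scaffold calls 3 lower at the least. The list medians of blood, fat cell, fatty acid synthesis, granulocyte, regional factor and stress genes turned negative under quantile normalization. Among all genes quantile normalization took the higher calls from 2255 to 1523 and the lower calls from 801 to 1183. The cause of these shifts was not tested. The step in array minimum held 1 tissue on each side, so a block for it was not run. Among lower calls under a level of 8, 54.4% recurred at day 28 and 6.75% at day 42; the cause was not tested.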

Other observations

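Cholesterol synthesis genes were called higher or not at all. Of 18 such genes 6 were higher in duodenum and 0 lower (1 lower at an unadjusted p under 0.05 in limma). The share of all genes called higher was 18%. The median of the list was 0.68. ACAT2, an early enzyme of the pathway, differed by 2.39 ± 0.21. Its arrays were also separate at day 28 (9.43 to 9.63 in duodenum and 7.06 to 7.95 in jejunum). They overlapped at day 42 (9.79 to 11.40 and 8.94 to 10.67) and at day 1 (8.26 to 9.60 and 9.54 to 9.88). LSS, which closes the sterol ring, differed by 1.43 ± 0.24. The calls within single ages were 2 higher at day 14 and 9 at day 21, and 2 genes were called in both. The test of a change with age passed only for COL6A2, PCK1 and CSNK1E, none of them in this list. At day 1, 9 of the 18 were lower and 2 higher. In the vessel wall list 5 of 20 genes were higher, beside 18% of all genes, and 1 was lower, near the 6.4% of all genes. The endothelial factor SOX18 (1.29 ± 0.09) and the cadherin CDH5 (1.07 ± 0.15) were also higher at days 28, 42 and 1. Of 15 fat cell genes 3 were higher and 2 lower, the higher share being near the 18% of all genes. ADIPOQ, the fat cell hormone adiponectin, read 8.88, 9.03, 9.62 and 9.00 at day 14 and 8.83, 8.79, 9.08 and 8.81 at day 21 in duodenum, against 5.98, 6.00, 5.90 and 6.15 at day 14 and 6.27, 5.89, 6.61 and 5.83 at day 21 in jejunum, without overlap (2.93 ± 0.13), and was higher at days 28 (2.92), 42 (2.54) and 1 (3.40). Of 12 skeletal muscle genes 1 was higher, a share below the 18% of all genes, and 1 was lower, near the 6.4% of all genes. ACTA1, the actin of skeletal muscle, differed by 3.00 ± 0.13 and was higher at every other age, while the fast myosin gene MYH1B differed by −1.25 ± 0.09.

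Stress and immediate early genes had 6 higher and 1 lower of 25, beside 18% and 6.4% of all genes. Their median was 0.16, against 0.171 for all genes. CCN2, a matrix-linked growth factor (2.67 ± 0.19), and CYR61, its relative (1.67 ± 0.15), were higher at all 5 ages. Of 20 fatty acid oxidation genes 4 were higher and 1 lower, near the shares of all genes (18% and 6.4%), with a median of 0.03. PDK4, which spares glucose by shutting pyruvate dehydrogenase, differed by 3.21 ± 0.27, but by 0.10 at day 28 and 0.36 at day 42, neither called. CPT1A, the gate of mitochondrial fat oxidation, was lower (−1.76 ± 0.17). Granulocyte and macrophage genes had 2 higher and 4 lower of 28, the lower share above the 6.4% of all genes. LY86, a partner of a toll-like receptor relative, was 1 of the 2 higher (2.87 ± 0.21). On other arrays this list had 12 higher and 2 lower at day 28, 12 and 3 at day 42, and 0 and 11 at day 1. Of 10 antigen presentation genes TAPBP, which loads peptides on class I molecules, was lower (−2.19 ± 0.11) and DMA, a class II loader, higher (1.55 ± 0.31). Blood genes had 4 higher of 11, beside 18% of all genes, with the globin gene HBAD at 1.24 ± 0.41. Erythroid marker levels were 8.12 to 10.75 in duodenum and 7.42 to 9.88 in jejunum. The part of blood in other results was not tested. Of 14 clock genes CRY2 (1.41 ± 0.10) and CLOCK (1.16 ± 0.16) were higher, and neither was called at day 28 or 42. The granulocyte, antigen presentation and clock genes, and the 20 of calcium and phosphate handling with 3 higher, were below the 18% of all genes called higher. The phosphate carrier gene SLC20A2 was among the 3 (2.00 ± 0.14).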
